A study of Mus musculus with 2 samples.

Results

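Cluster 17 was 1 of 21 clusters into which the authors had divided cells of digested mouse aorta, and it held 122 of 7917 cells. Its members were taken by the deposited cluster number alone, with each barcode counted once, and every one of them carried the deposited class SMC, the authors' abbreviation for smooth muscle cells. The cells came from 2 libraries, 1 per genotype, made from aortas after 12 weeks of western diet. One library, Apoe_KO (labelled ApoE), came from Apoe-/- mice. The other, EC-iDKO_Apoe_KO (called DKO below, as in its label), came from EC-iDKO/Apoe-/- mice, in which a pair of genes was deleted inducibly in endothelial cells, so that both groups lacked Apoe. From knowledge of the line the deleted pair is Epn1 and Epn2, which encode epsins, adaptors of clathrin-mediated endocytosis. The labels gave no number, sex or age of the mice and no inducing agent. They described the sample as all cells, while the protocol included CD31 microbeads, which bind endothelial cells, so the shares of cells can depend on the beads. Libraries were made with the 10x 3' v2 chemistry, in which short tags near the 3' end of a transcript are counted as unique molecular identifiers (UMIs).

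Smooth muscle cells form the middle layer of the aortic wall, where they contract and also lay down elastic fibres, collagen and proteoglycans. In atherosclerosis some of them lose part of the contractile programme and take on matrix-producing, inflammatory or cartilage-like programmes. They also differ along the vessel, since the smooth muscle of the arch, the descending aorta and the large branches arises from different embryonic sources.

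Cluster 17 held 51 of the 2428 Apoe_KO cells (2.10%, 95% Clopper-Pearson interval 1.57 to 2.75) and 71 of the 5489 DKO cells (1.29%, 1.01 to 1.63). When cells below 1000 UMIs or at 10% or more mitochondrial UMIs were dropped, the shares were 2.49% and 3.27%. With the depth filter alone they were 2.18% and 3.17%, and with the mitochondrial filter alone 2.37% and 1.33%, so the order of the libraries turned with the depth filter. The cluster's cells were deep. Their median was 9038 UMIs per cell in Apoe_KO, the highest of all clusters, against 4699 in the other cells of the SMC class. In DKO it was 3012, against 765, and only cluster 11 was higher at 3288. The median share of mitochondrial UMIs was 3.77% and 3.66%, against 4.92% and 4.14% in the other SMC cells. The libraries as a whole held 13304762 and 6853185 UMIs, of which cluster 17 gave 491400 and 207418. They shared 5 barcodes, none of them in cluster 17.

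Levels below are population sums of UMIs per 1000000 UMIs (CPM). With 1 library per genotype there is no replicate, and no p-value was computed. Ratios carry 95% exact conditional binomial intervals, which cover counting error only and not the spread between mice. A gene was called where it was 1.5-fold or more higher or lower, its interval left out 1 and both populations together had at least 20 UMIs. The clustering had used these same genes, so the contrasts of cluster 17 with other cells describe it and test nothing.

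By its markers the cluster was smooth muscle. All 12 contractile markers were detected in both libraries, and their summed level was 58966 CPM in Apoe_KO, rank 3 of the 20 clusters with at least 20 cells, and 52493 CPM in DKO, rank 9 of 21. Acta2, smooth muscle actin, stood at 22979 and 19868 CPM. Myh11, the smooth muscle myosin heavy chain, stood at 5885 and 6933 CPM. Against the other SMC cells their ratios were 0.98 and 0.94 in Apoe_KO and 0.86 and 1.14 in DKO, all below the size of a call. Among the 12, only Des was called, and it was higher in both libraries. Endothelial markers were low, with 57 and 35 UMIs in all over 12 genes (116 and 169 CPM, rank 19 of 20 and 15 of 21 clusters). Cdh5, Kdr, Tie1 and Cldn5 had none in either library. The 10 macrophage markers together had 18 UMIs in Apoe_KO and 0 in DKO. T cell markers had 2 UMIs and 0. Of the adipocyte markers only Fabp4, a fatty acid binding protein that endothelial cells also express, was detected, with 44 and 46 UMIs. Fibroblast markers were not as low, with 649 and 200 UMIs over 11 genes (rank 11 of 20 and 6 of 21 clusters). No doublet caller was run. The low sums bear only on mixtures with endothelial, immune or fat cells. Pairs of smooth muscle cells, or mixtures with fibroblasts, were not tested.

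A group of secreted, matrix and muscle genes stood above the rest of the aorta. In Apoe_KO, 280 of 12629 genes were called higher in cluster 17 than in all other cells of the library (2.22%) and 722 lower (5.72%). In DKO, 266 of 10955 were higher (2.43%) and 167 lower (1.52%). With cells thinned to 500 UMIs the counts were 122 higher and 45 lower in Apoe_KO, where the balance thus turned, and 169 and 28 in DKO. Between the libraries, 40 genes were higher in both (14.3% of the first list and 15.0% of the second) and 45 were lower in both (6.23% and 26.9%). Opposite calls were made for 2 genes higher in Apoe_KO and lower in DKO, and for 12 lower in Apoe_KO and higher in DKO. The median log2 ratio over all genes was -0.08 and 0.05. Of the 15 genes with the largest change in both libraries, 13 are reported here, in order of that change: Bmp3, Itih4, Aspn, Sparcl1, Des, Wif1, Tnnt2, Igfbp4, Mfap4, Kcnj15, Htra3, Serpinb6b and Khdrbs3. Cluster 17 had the highest level of all clusters for 11 of the 13 in Apoe_KO and for 9 in DKO.

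**Figure D1:**
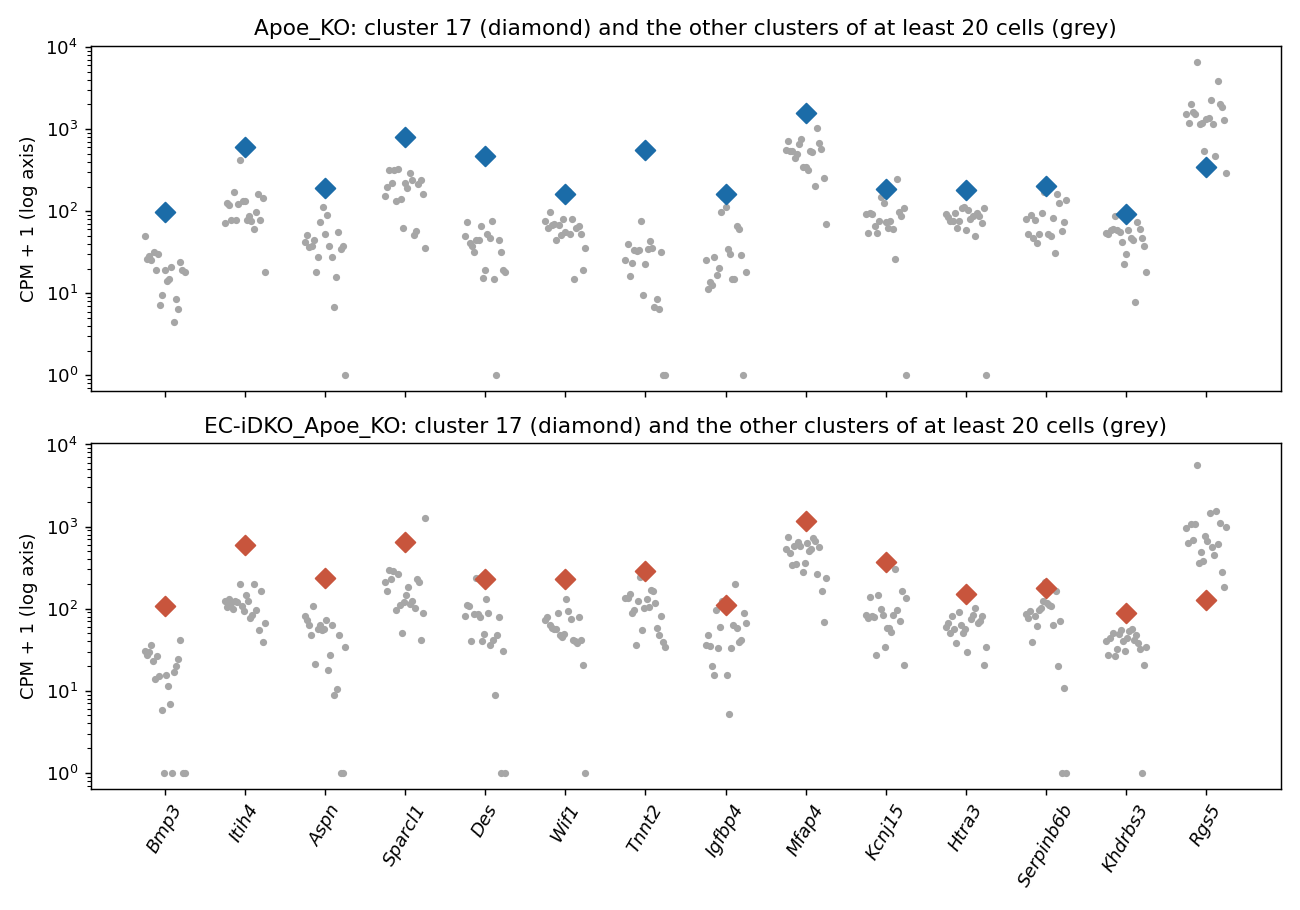
Level of 13 genes that lead cluster 17 in both libraries, and of Rgs5, in each cluster of at least 20 cells (CPM + 1, log axis, 1 panel per library). Diamonds are cluster 17 and grey points the other clusters; Itih4 is highest in cluster 17 in both panels at 598 CPM, while Rgs5 is among the lowest.

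The promoters of Des, Tnnt2 and Itih4 are shown because of a contrast inside the cluster that is described further on: Tnnt2 was higher in one set of its cells and Itih4 in another, in both libraries, and Des went with Tnnt2 in Apoe_KO. Each run gives the 250 bases before the transcription start, 5′ to 3′ on the gene's strand, from RefSeq on GRCm38.p6. Capitals mark E-boxes (CANNTG, the letters that basic helix-loop-helix factors bind, which read alike on both strands) and M-CAT elements (CATTCC on either strand, the letters that TEAD factors bind).
Des, chr1:75360042-75360291, plus strand: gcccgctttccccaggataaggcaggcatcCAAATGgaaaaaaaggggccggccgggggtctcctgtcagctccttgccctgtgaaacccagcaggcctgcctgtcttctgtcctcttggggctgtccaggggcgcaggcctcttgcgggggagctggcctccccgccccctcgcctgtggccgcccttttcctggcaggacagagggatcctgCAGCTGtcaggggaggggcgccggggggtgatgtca
Tnnt2, chr1:135836084-135836333, plus strand: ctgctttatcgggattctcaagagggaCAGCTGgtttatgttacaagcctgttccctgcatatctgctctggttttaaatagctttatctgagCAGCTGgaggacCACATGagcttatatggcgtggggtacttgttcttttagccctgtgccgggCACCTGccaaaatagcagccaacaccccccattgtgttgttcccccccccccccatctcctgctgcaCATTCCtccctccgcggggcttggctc
Itih4, chr14:30886226-30886475, plus strand: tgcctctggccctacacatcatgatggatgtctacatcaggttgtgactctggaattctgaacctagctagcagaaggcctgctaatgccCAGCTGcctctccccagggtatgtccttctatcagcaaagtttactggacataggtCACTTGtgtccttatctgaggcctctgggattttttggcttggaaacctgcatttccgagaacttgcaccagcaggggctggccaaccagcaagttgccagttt
The Des window held 2 E-boxes and 0 M-CAT elements, the Tnnt2 window 4 and 1, and the Itih4 window 2 and 0. No marked pair overlapped. E-boxes were in 66.2% of the 32851 promoter windows of this length and M-CAT elements in 12.6%. Of the 13 leading genes 9 had an entry (Tnnt2 had 2, of which the first is shown), and 9 of these 10 windows held an E-box. A match describes the letters and is no evidence of binding.

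Among the muscle genes, Tnnt2 and Des showed the largest ratios in Apoe_KO. Tnnt2, which encodes cardiac troponin T (chr1:135836354-135852260, plus strand; mm10 with GENCODE vM21 gene bounds, as for all positions below), stood at 558 CPM, against 27.4 CPM in all other Apoe_KO cells, a ratio of 20.4 (17.3 to 23.9). In DKO it stood at 289 against 119 CPM, a ratio of 2.44 (1.84 to 3.17). Cluster 17 was the highest cluster in each library, but by different margins: the next, cluster 7, was at 75.2 CPM in Apoe_KO and 241 CPM in DKO. Des encodes desmin, the intermediate filament of muscle (chr1:75360329-75368579, plus strand). It stood at 464 against 39.0 CPM in Apoe_KO, a ratio of 11.9 (10.1 to 13.9), and at 231 against 86.8 CPM in DKO, a ratio of 2.67 (1.94 to 3.58), where cluster 5 reached the same level at 232 CPM. Other genes of striated muscle did not accompany Tnnt2. It gave 274 of the 275 UMIs of the detected skeletal and cardiac marker list in Apoe_KO and 60 of 63 in DKO, while Acta1 and Ttn had 0 UMIs in both.

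Among the secreted genes, Itih4 and Bmp3 kept closer values between the libraries than Tnnt2 and Des did. Itih4, a heavy chain of the inter-alpha-trypsin inhibitor family (chr14:30886476-30902353, plus strand), stood at 598 CPM in both libraries, against 117 and 119 CPM in the other cells. The ratios were 5.11 (4.49 to 5.79) and 5.00 (4.11 to 6.05). Bmp3, a BMP family ligand (chr5:98854415-98884396, plus strand), stood at 95.6 against 18.3 CPM and at 106 against 20.5 CPM, ratios of 5.24 (3.74 to 7.19) and 5.18 (3.14 to 8.17). It was thus less abundant than Itih4 in tags but as far above the other cells.

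Of the matrix genes, Aspn, the small leucine-rich proteoglycan asporin (chr13:49544443-49567565, plus strand), stood at 191 against 45.0 CPM and at 236 against 52.5 CPM. Its ratios were 4.26 (3.38 to 5.30) and 4.50 (3.27 to 6.08). Sparcl1, a matricellular protein (chr5:104079111-104113733, minus strand), stood at 798 against 189 CPM and at 651 against 190 CPM, with ratios of 4.22 (3.78 to 4.69) and 3.43 (2.85 to 4.10); in the DKO cluster 20, of 27 cells, was higher at 1260 CPM. Mfap4, an elastic fibre protein (chr11:61485431-61488900, plus strand), was the most abundant of the 13 in tags, at 1559 against 526 CPM and 1167 against 508 CPM. Its ratios of 2.96 and 2.30 were smaller than those of Aspn or Sparcl1.

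Other genes of the group are regulators of signalling or proteolysis, a channel and an RNA-binding protein. Wif1, a secreted inhibitor of Wnt ligands, had ratios of 2.48 and 3.47, and Igfbp4, an insulin-like growth factor binding protein, 3.79 and 2.30. Kcnj15, an inward rectifier potassium channel, stood at 187 CPM in Apoe_KO (ratio 2.18) and 371 CPM in DKO (4.28). In Apoe_KO cluster 14 was higher for Kcnj15, at 243 CPM, and with cells thinned to 500 UMIs its ratio fell below 1, to 0.398. Only 1 of the 51 cluster 17 cells then had a UMI of it, so that ratio rests on very few counts. Thinned to 1000 UMIs, 4 of 50 cells had one (8%), against 6.69% of other SMC cells. Htra3, a secreted serine protease (2.21 and 2.16), Serpinb6b, a serine protease inhibitor (2.55 and 2.04), and Khdrbs3, an RNA-binding protein (1.94 and 2.12), were also higher in both libraries. The rule left out 2210407C18Rik as an unnamed transcript; singled out after its values were seen, it was at 175 against 21.9 CPM and at 318 against 64.3 CPM, ratios of 7.98 and 4.95.

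The same genes set cluster 17 apart from other smooth muscle. Against the other cells of the SMC class, 1485 in Apoe_KO and 4336 in DKO, 304 of 11130 genes were higher (2.73%) and 369 lower (3.32%) in Apoe_KO, and 305 of 10410 were higher (2.93%) and 153 lower (1.47%) in DKO. All 13 genes had intervals above 1 in both libraries, with ratios from 1.67 to 17.8 in Apoe_KO and from 2.07 to 5.29 in DKO. Itih4 had ratios of 6.08 (5.30 to 6.96) and 5.29 (4.32 to 6.42), and Igfbp4 of 9.27 (6.95 to 12.3) and 2.99 (1.85 to 4.62). Since cluster 17 was deeper than this reference, the 13 genes were also set against SMC cells inside the cluster's own quartiles of depth (562 cells with a median of 8485.5 UMIs, and 979 with 2241), a reference chosen after seeing the data. In it all 26 of the 26 values were called higher. The 13 genes had been chosen as higher than all other cells, which include both SMC references. The counts of these genes thus describe the cluster and test nothing.

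**Figure D2:**
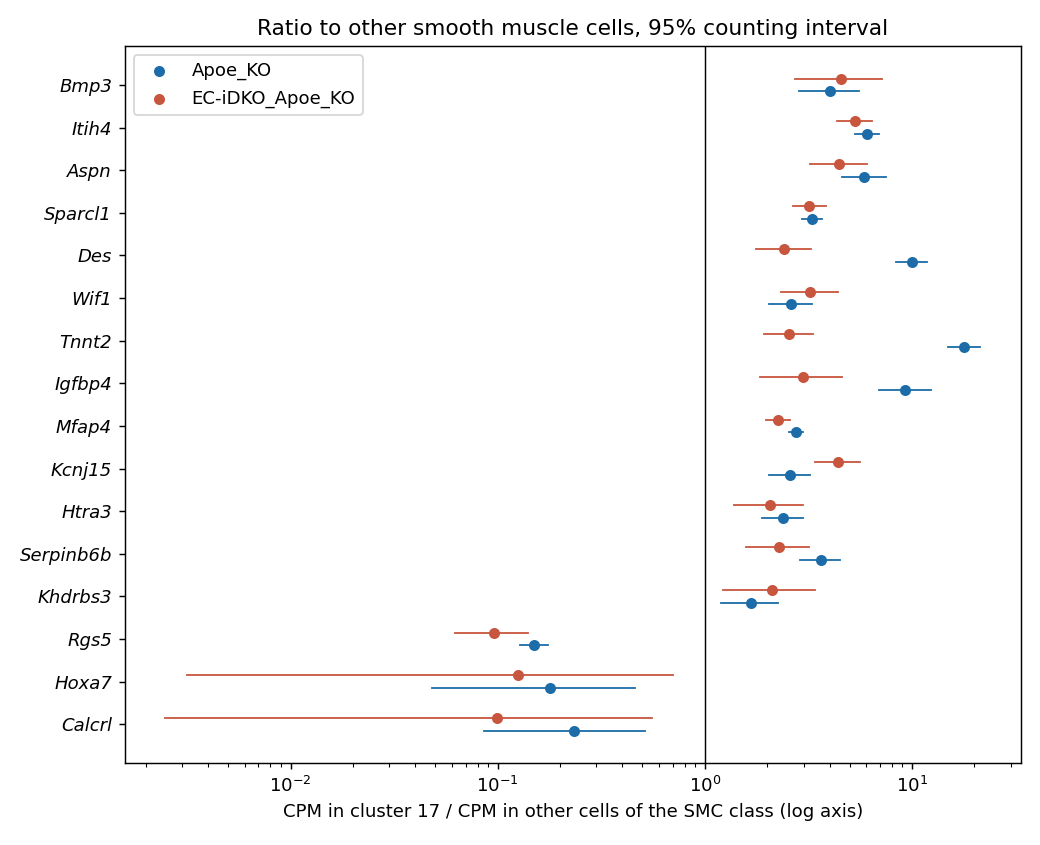
Ratio of the level in cluster 17 to that in the other cells of the SMC class (log axis) for the 13 genes and for Rgs5, Hoxa7 and Calcrl, 1 colour per library; bars are 95% counting intervals. The largest ratio is that of Tnnt2 in Apoe_KO, 17.8, and Rgs5, Hoxa7 and Calcrl lie below 1 in both libraries.

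Lower genes were of 2 kinds. The 10 lowest by the rule were Cytl1, Ly6c1, Ptprb, Rgs5, Dcn, Ly6a, Hoxa7, Calcrl, Ly6e and Emp1, and several of these are known as genes of endothelial cells, fibroblasts or cartilage. Against other smooth muscle, 3 of the 10 (Rgs5, Hoxa7 and Calcrl) kept intervals below 1 in both libraries and Cytl1 (0.11, 0.014 to 0.42) in Apoe_KO; the intervals of the others held 1 or rested on 0 UMIs. Rgs5, a regulator of G protein signalling in mural cells (chr1:169655501-169695813, plus strand), stood at 340 CPM against 2266 CPM in the other SMC cells of Apoe_KO, a ratio of 0.15 (0.13 to 0.17). In DKO it stood at 125 against 1308 CPM, a ratio of 0.10 (0.063 to 0.14). That made cluster 17 rank 19 of 20 and rank 21 of 21 clusters, although 1 cell held 26.9% of its 167 UMIs in Apoe_KO. Hoxa7, a homeobox gene (chr6:52214491-52221854, minus strand), had 4 and 1 UMIs, ratios of 0.18 (0.048 to 0.46) and 0.13 (0.0032 to 0.70). Calcrl, the receptor shared by adrenomedullin and calcitonin gene-related peptide (chr2:84330626-84425411, minus strand), had 6 and 1 UMIs, ratios of 0.23 (0.086 to 0.52) and 0.10 (0.0025 to 0.56).

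Beside the list counts against other smooth muscle that follow stand the shares over all genes. These were 2.73% higher and 3.32% lower in Apoe_KO, and 2.93% and 1.47% in DKO. Some lists hold genes already chosen as high in this cluster: Mfap4 (elastic fibre), Igfbp4 (IGF axis) and Aspn (proteoglycan). Others hold genes chosen as low, such as Hoxa7, Rgs5 and Cytl1. Counts and medians with these genes describe the cluster and test nothing. Genes of position along the body axis were unevenly expressed. In Apoe_KO, 2 of the 10 measured genes of that list were higher than in other smooth muscle and 4 were lower, with a median log2 ratio of -0.28 beside -0.07 over all genes. Hand2, a transcription factor of the developing heart and branchial arches (chr8:57320983-57324633, plus strand), stood at 69.2 against 5.91 CPM, a ratio of 11.7 (7.32 to 18.6), and Tbx20, a T-box factor, had a ratio of 3.47 (1.93 to 5.91). Hoxb7 (0.13), Hoxb4 (0.13), Hoxa7 (0.18) and Hoxb5 (0.24) were the lower ones, each with 4 UMIs or fewer. In DKO Hand2 had 11 UMIs, a ratio of 3.06 (1.48 to 5.73), and Hoxa7 was lower, the only 2 calls among 11 genes (median -0.18 beside 0.05). Tbx20 had a ratio of 2.30 (0.60 to 6.31) there, from 4 UMIs. Hoxb5 and Hoxb7 had 0 UMIs in DKO, and at the floor of 3 UMIs their ratios were at or below 0.88 and 0.83, so no difference could be detected at this depth.

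Some of the elastic fibre genes were higher than in other smooth muscle. Of 12 measured in Apoe_KO, 5 passed as higher and 0 as lower, and the list's median was 0.54 beside -0.07 for all genes. In DKO it was 6 higher and 0 lower of 10, with a median of 0.81 beside 0.05. Mfap4, chosen before as high in this cluster, was 1 of the higher genes in each library. Against all other cells of the library the list held 1 higher and 1 lower of 12 in Apoe_KO (median 0.22) and 4 higher and 0 lower of 11 in DKO (0.49). Fbln5, which tethers elastic fibres to cells, had ratios of 1.62 (1.45 to 1.80) and 1.56 (1.30 to 1.86), and Emilin1, a fibre-associated glycoprotein, of 1.64 and 2.03. Mfap5, a microfibril protein, had 1.98 and 1.80. Fbln2 was called in Apoe_KO (4.14, 2.32 to 7.01) and not in DKO (2.01, 0.79 to 4.32). Lox, the enzyme that crosslinks elastin and collagen, was called in DKO (2.61, 2.01 to 3.33) and not in Apoe_KO (1.43, 1.18 to 1.72); whether such ratios differ between the libraries was not tested. Eln, elastin itself, was at 1.31 and 1.19, under the size of a call.

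Of the collagens, Col3a1 had ratios of 2.02 and 2.06 and Col5a2 of 1.60 and 1.52, and the list held 2 higher and 1 lower of 13 in Apoe_KO and 3 higher and 0 lower of 13 in DKO (medians 0.16 and 0.41). Among proteoglycans, Aspn and Prelp (1.63 and 1.96) were higher in both, 2 of 10 in Apoe_KO and 3 of 9 in DKO, where Vcan was lower (0.66); the medians were -0.19 and 0.53. The IGF axis had 3 higher and 1 lower of 6 in Apoe_KO, with Igfbp4 (9.27), Igfbp2 (4.65) and Igf2 (3.45, from 5 UMIs) higher and Igfbp5 (0.38) lower, and a median of 1.17. In DKO Igfbp4 was called (2.99), with a median of 0.61 over 6 genes, and Igfbp5 was at 1.09 (0.65 to 1.72).

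Markers of modulated smooth muscle split. In Apoe_KO, 2 of 9 were higher and 2 lower than in other smooth muscle (median 0.09), and in DKO 5 were higher and 1 lower (median 0.71). Vcam1, an adhesion molecule, had ratios of 7.62 (6.07 to 9.52) and 3.25 (2.52 to 4.15), and Timp1, an inhibitor of metalloproteinases, of 2.16 and 2.58. Fn1, fibronectin, was lower in both at 0.46 (0.42 to 0.51) and 0.55 (0.48 to 0.63). Spp1, osteopontin, was at 0.63 (0.41 to 0.93) in Apoe_KO and 15.2 (10.4 to 22.1) in DKO. The latter value came from 3 of 71 cells, 1 of which held 29 of the 47 UMIs. Against all other cells, which include fibroblasts and macrophages, the list's median was -2.25 and -0.28. Fibroblast markers overlap with this list, and 2 of 8 and 3 of 6 were higher than in other smooth muscle.

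Of the cartilage-like markers, 1 of 8 was higher and 3 were lower than in other smooth muscle in Apoe_KO (median -1.35), and 2 of 6 were higher in DKO (median 0.61). Inside cluster 17 their summed level was 201 CPM in Apoe_KO and 169 CPM in DKO, and 0 of the 2 members measured between the libraries were called (median log2 ratio of DKO over Apoe_KO -0.0016, beside -2.59 for the same genes in the other cells). Comp, a cartilage and tendon matrix protein, was higher in both (2.94, 2.09 to 4.05; 2.29, 1.23 to 3.96). Cytl1 (0.11), Col2a1 (0.28) and Ibsp (0.34) were lower in Apoe_KO, and Ibsp, from 4 UMIs, was at 5.75 (1.42 to 17.5) in DKO. Of 19 and 18 TGF-beta and BMP pathway genes, Tgfb2 was higher in Apoe_KO (1.97) and Smad3 (3.02) and Id3 (1.73) in DKO (medians -0.03 and 0.27). Over all genes 2.73% and 2.93% were called higher, so these few calls say little about the pathway. Among ion channel and vasomotor genes, Pln, the inhibitor of the sarcoplasmic calcium pump, was called in Apoe_KO (3.24, from 9 UMIs; 1.23, 0.25 to 3.77 in DKO), beside Rgs5. Among lipid-handling genes, Fabp5 (0.36) and Fabp4 (0.50), fatty acid binding proteins, were lower in Apoe_KO, and Scd1 (0.37) and Fabp4 (0.41) were lower and Abca1 (1.96) higher in DKO. ER chaperone, oxidative phosphorylation, p53, splicing, immediate early, ubiquitin and endocytosis genes had no call in either library. Epn1 and Epn2 stood at 20.4 and 65.1 CPM in Apoe_KO and at 24.1 and 121 CPM in DKO; 3' tags do not read the deletion.

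**Figure D3:**
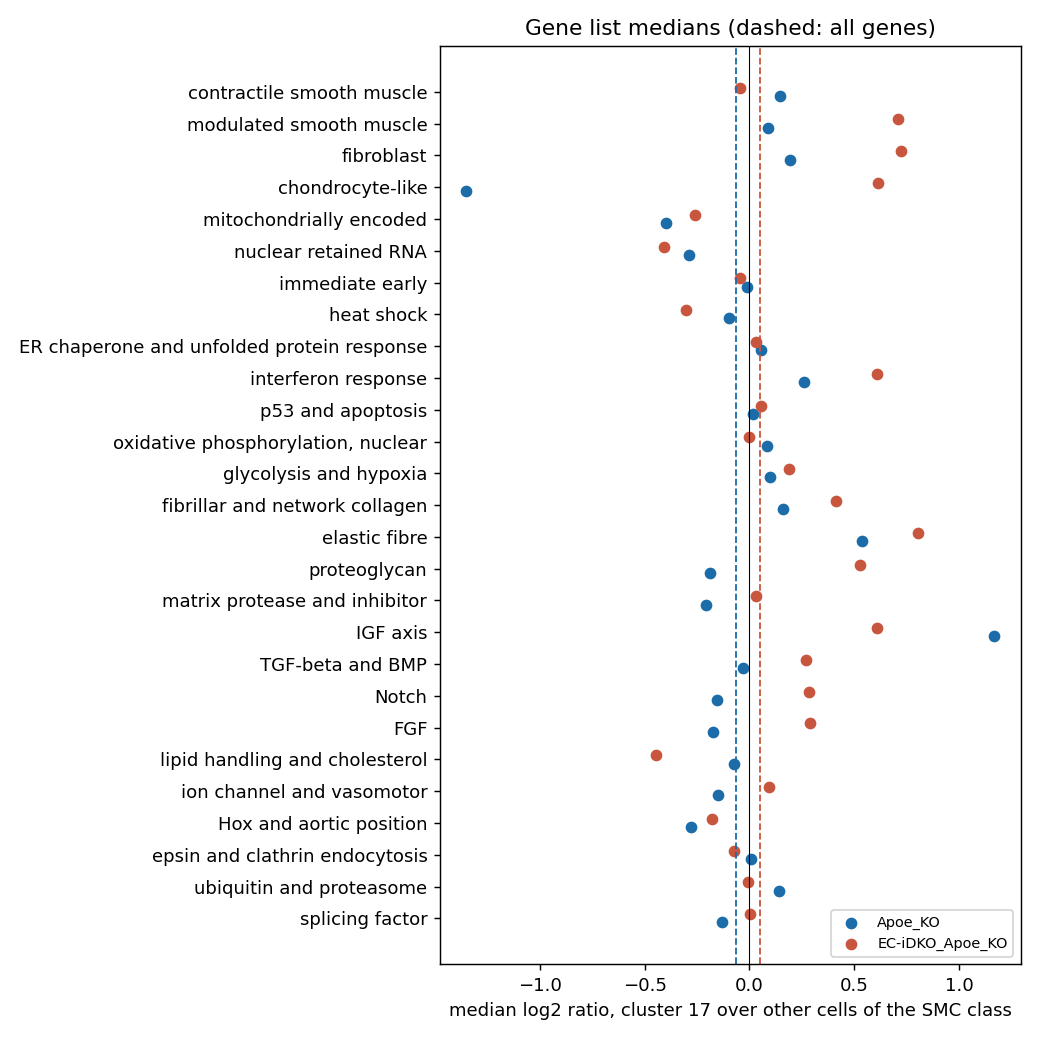
Median log2 ratio of cluster 17 over the other cells of the SMC class for gene lists with at least 5 measured members in both libraries, 1 point per library. Dashed lines are the medians over all genes. The elastic fibre list holds Mfap4 and the IGF axis list Igfbp4, both chosen as high in cluster 17, and the cartilage-like list holds Cytl1, chosen as low. Elastic fibre and IGF axis genes lie to the right in both libraries (0.54 and 0.81, 1.17 and 0.61), and the cartilage-like list stands at -1.35 and 0.61, while its summed level in cluster 17 was 201 and 169 CPM.

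The leading genes came from many cells for some and few for others. Without thinning, 49 of 51 Apoe_KO cells and 43 of 71 DKO cells had a UMI of Sparcl1, 36 and 33 had one of Itih4, 33 and 27 of Tnnt2, and 25 and 14 of Des. For Des, 1 Apoe_KO cell held 20.6% of the UMIs. To compare populations at 1 depth, each cell was thinned to 500 UMIs. Sparcl1 was then found in 33.3% of cluster 17 cells, 10.6% of other SMC cells and 0.694% of cluster 13 cells of Apoe_KO, cluster 13 being the immune class, which should lack it (median depths before thinning 9038, 4699 and 4565). In DKO it was in 28.2%, 9.86% and 3.77% (3012, 766 and 696). Itih4 was in 17.6%, 3.91% and 3.47% of Apoe_KO cells and in 28.2%, 5.54% and 3.77% of DKO cells.

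For Tnnt2 the libraries differed in the level outside the cluster. The thinned shares were 25.5% (14.3 to 39.6), 1.41% and 0.694% in Apoe_KO. In DKO they were 16.9% (9.05 to 27.7), 5.31% and 11.3%, the last from 6 of 53 cells. The immune cluster's share thus lay inside the interval of cluster 17 there, so DKO share of Tnnt2 could not be told from background. For Des the shares were 13.7%, 2.09% and 1.39%, and 12.7%, 4.32% and 1.89%. For Bmp3 in DKO they were 4.23%, 1.27% and 0%, where 0 of 53 cells allows a share of up to 5.66%, above that of the cluster.

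The 5 leading genes Bmp3, Itih4, Aspn, Sparcl1 and Des were counted cell by cell. At least 3 of the 5 had a UMI in 74.5% of the cluster's Apoe_KO cells and 31.0% of its DKO cells, against 9.16% and 0.784% of other SMC cells, which were shallower. After thinning to 500 UMIs, at least 3 of the 5 were found in 1.96% (1 of 51) and 4.23% (3 of 71) of the cluster's cells. In the other SMC cells it was 0% and 0.115%. At the lower threshold of at least 2 of the 5, the thinned shares were 17.6% and 18.3%, against 1.28% and 2.12% of the other SMC cells. The 5 genes had been chosen for their level in this cluster, so these shares describe it and test nothing.

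At resolution 1 of the authors' coarser clusterings, most of the cluster's cells fell into 2 sets. The number 17 itself is from resolution 1.4. At resolution 1, 32 Apoe_KO and 46 DKO members made up the whole of a coarser cluster numbered 15, and 17 and 20 members lay among the 177 and 412 cells of a coarser cluster 4; the remaining 2 and 5 lay in neither. At 0.1 all 51 and 71 lay in 1 coarser cluster, at 0.4 42 and 56 did, and at 0.6 41 and 54. At 0.2, 34 and 51 lay in 1 coarser cluster and 17 and 18 in another. At 0.8, 21 and 32 made up the whole of a coarser cluster, 17 and 19 lay in a second, and the rest were spread over others. Whether these were the same cells as in the sets of resolution 1 was not tested. Both sets of resolution 1 were deep, with medians of 8097.5 and 12223 UMIs in Apoe_KO and 3099 and 3381 in DKO. The coarser clusters were also made from these genes, so their contrast is a description.

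Against the cells outside cluster 17, all 13 leading genes were called higher in the coarser cluster 15 cells of Apoe_KO (2.32% of all genes were) and 9 of the 13 in those of DKO (2.47%), where Wif1, Igfbp4, Htra3 and Serpinb6b were not. In the coarser cluster 4 cells it was 11 in each library, without Bmp3 and Khdrbs3 in Apoe_KO (2.91% of all genes) and without Tnnt2 and Khdrbs3 in DKO (2.45%). The leading genes had been chosen on the whole cluster against these same cells, so the counts describe and test nothing. Set against each other, the sets had intervals that held 1 for 3 of the 13 genes in Apoe_KO and 6 in DKO. Tnnt2 stood at 852 CPM in the coarser cluster 15 cells and 136 CPM in the coarser cluster 4 cells of Apoe_KO, a ratio of 6.27 (4.20 to 9.70), and at 357 and 160 CPM in DKO, a ratio of 2.23 (1.14 to 4.78). Des had ratios of 5.79 (3.79 to 9.25) and 1.47 (0.74 to 3.12), Bmp3 of 3.82 (1.69 to 10.1) and 1.71 (0.60 to 5.97), and Sparcl1 of 3.0 (2.31 to 3.93) and 1.31 (0.89 to 1.98). Itih4 went the other way, at 186 against 1204 CPM (0.15, 0.11 to 0.21) and 318 against 1177 CPM (0.27, 0.18 to 0.40). Aspn was at 0.41 (0.26 to 0.63) and 0.47 (0.25 to 0.87), Wif1 at 0.56 (0.35 to 0.89) and 0.20 (0.09 to 0.40), Mfap4 at 0.52 and 0.51 and Serpinb6b at 0.43 and 0.43. Of the 13 genes, Tnnt2 was the 1 whose interval lay above 1 in both libraries, and Aspn, Itih4, Mfap4, Serpinb6b and Wif1 were the 5 whose intervals lay below 1 in both. Rgs5, low in both sets, was at 3.58 (2.34 to 5.68) in Apoe_KO and 0.87 in DKO.

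**Figure D4:**
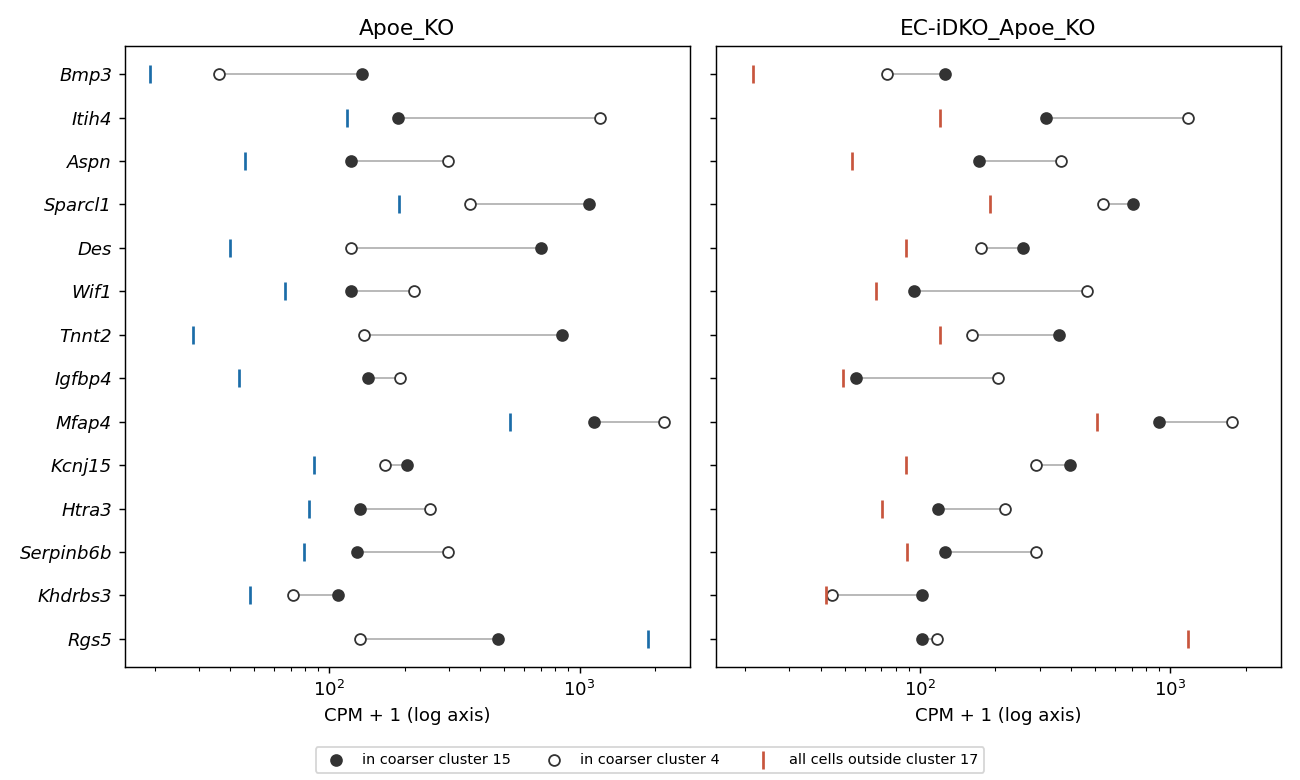
Level (CPM + 1, log axis) of the 13 genes and Rgs5 in cluster 17 cells of coarser cluster 15 (filled), cluster 17 cells of coarser cluster 4 (open) and all cells outside cluster 17 (bar), 1 panel per library. Tnnt2 is higher in the filled set in both panels (852 against 136 CPM and 357 against 160 CPM), and Itih4 is higher in the open set (1204 against 186 CPM and 1177 against 318 CPM).

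The clusters most like cluster 17, by Spearman correlation of log2(CPM + 10) over genes of at least 50 CPM, were clusters 12 (0.918), 6 (0.917) and 1 (0.916) in Apoe_KO and clusters 0 (0.882), 7 (0.872) and 6 (0.870) in DKO. Called in either direction were 6.89% of 6268 genes against cluster 12, 8.14% of 7743 against cluster 6 and 8.09% of 6638 against cluster 1. In DKO it was 6.34% of 5934 against cluster 0, 7.28% of 4847 against cluster 7 and 7.69% of 5398 against cluster 6. Of 48 comparisons of the 8 first genes with these clusters, 47 were called higher. The exception was Tnnt2 against cluster 7 in DKO, at 1.20 (0.87 to 1.65). The 8 genes had been chosen as higher than all other cells, these clusters among them, so the count describes the cluster and tests nothing.

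Against these neighbours other genes also stood out. In Apoe_KO, Serpina3n, a member of a family of closely related protease inhibitors, was at 163 CPM against 14.0 in cluster 12 and 6.37 in cluster 6, ratios of 11.6 and 25.6. Gpc3, a cell surface heparan sulphate proteoglycan, was at 85.5 against 7.08 CPM in cluster 6 (12.1). Lower against cluster 12 were Ibsp (0.19), Col2a1 (0.21) and Fn1 (0.26). Lower against cluster 6 were Btc, an epidermal growth factor receptor ligand (0.13), Sema3a, a guidance ligand (0.15), and Epha3, an ephrin receptor with 0 UMIs against 61. In DKO, Irf1, an interferon-response transcription factor, was at 405 against 62.7 CPM in cluster 6 (6.46). Vcam1 was higher than in cluster 6 (9.25) and lower than in cluster 7 (0.24), where it stood at 1508 CPM. Carmn, a smooth muscle long noncoding RNA, was lower than in cluster 6 (0.21, from 5 UMIs).

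Between the genotypes, most of the 10 highest and 10 lowest genes of cluster 17 went in the same direction in the rest of the cells. The share of all genes that did so is not given here, so this describes the named genes only. In the rest of the cells 1245 of 13221 genes were higher and 1769 lower in DKO. Of 4660 genes in cluster 17, 392 were higher (8.41%) and 284 lower (6.09%) in DKO, with a median log2 ratio of 0.07. The balance turned with a minimum of 100 UMIs (90 higher and 159 lower) and with cells thinned to 500 UMIs (33 and 51). The 2 libraries differ in depth as well as genotype, and with 1 of each these cannot be told apart. Lars2, the mitochondrial leucyl-tRNA synthetase, was highest, at 477 against 67.2 CPM, a ratio of 7.11 (4.75 to 10.9), beside 6.17 in the other cells. The other genes of the 10 highest were Irf1 (6.63), Cdo1 (5.92), Spp1 (4.28), Rrad (4.24), Ier2 (4.13), Eva1b (3.92), Smoc1 (3.52), Junb (3.44) and Ier3 (3.38). All but Spp1 were also higher in the other cells. For 6 of the 10 the ratio in the cluster divided by that in the other cells had an interval above 1: Irf1 (a quotient of 2.14, from 3.07 in the other cells), Rrad (1.61), Junb (1.42), Ier3 (1.31), Smoc1 (3.07) and Spp1. The Spp1 value rested on 1 DKO cell with 29 of the 47 UMIs, and without that cell the ratio was 1.68 (0.87 to 3.18), no longer a call. Smoc1, a calcium-binding matrix protein, was at 222 against 63.1 CPM in the cluster, beside a ratio of 1.14 in the other cells.

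The lowest 2 were heat shock genes. Hspa1b, an inducible chaperone with a near-identical copy, Hspa1a, between which tags can be split, was at 174 against 1178 CPM, a ratio of 0.15 (0.10 to 0.21), beside 0.17 in the other cells. Dnajb1, its cochaperone, was at 0.18 beside 0.19. Insig2, a regulator of sterol synthesis, was at 0.23 (0.07 to 0.58) beside 0.83, and Cpeb4, which binds polyadenylation elements in mRNA, at 0.26 (0.09 to 0.60) beside 0.85. All 10 lowest (with Atp5k, Eif4ebp2, Ndufb1-ps, Serpina3n, Ap3m1 and Tmsb10) were lower in the other cells too, and for 4 of them (Insig2, Eif4ebp2, Ap3m1 and Cpeb4) the interval of the same quotient lay below 1. Over the 13 heat shock genes, 1 was higher and 7 lower, with a median of -0.81 beside -0.78 in the other cells. Of 18 nuclear genes of oxidative phosphorylation, 3 were higher and 8 lower (-0.49 beside -0.34). Of 13 TGF-beta and BMP pathway genes, 4 were higher, Id3 (2.76), Id1 (1.99), Smad7 (1.91) and Tgfbr1 (1.75), and Tgfb2 was lower (0.61), with a median of 0.27 beside 0.12. Epn2, at 121 against 65.1 CPM, had a ratio of 1.85 (1.05 to 3.22), and Epn1, with 5 and 10 UMIs, was below the minimum.

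Of the identity genes, Itih4 had a ratio of 1.00 (0.80 to 1.24) between them, and 8 of the 13 intervals held 1. Of the 3 called, Des (0.50, 0.36 to 0.68) and Tnnt2 (0.52, 0.39 to 0.69) were lower in the DKO cluster, while in the other cells they were higher, with ratios of 2.22 and 4.33. Kcnj15 (1.98) was higher. The smaller ratios of Des and Tnnt2 to other cells in DKO, given above, thus came from both sides of the ratio.

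**Figure D5:**
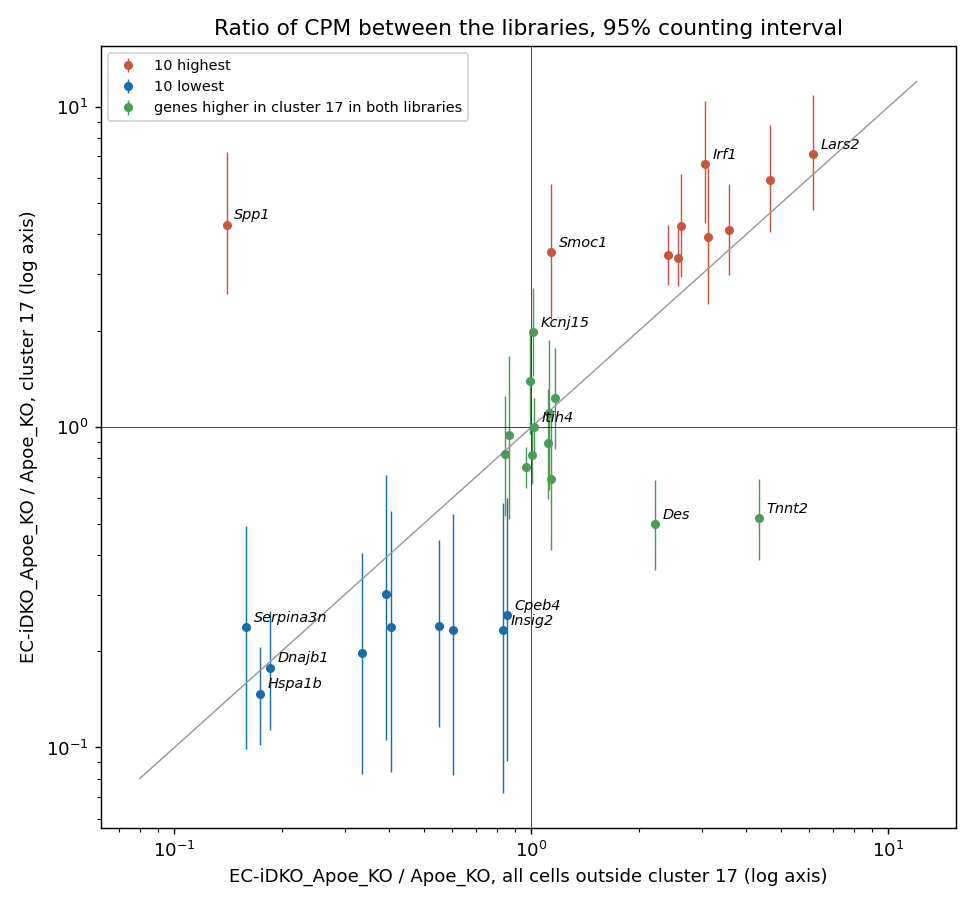
Ratio of DKO to the Apoe_KO library in cluster 17 (vertical, log axis, bars are 95% counting intervals) against the same ratio in all other cells (horizontal, log axis); colours are the 10 highest, the 10 lowest and the 13 identity genes, and the diagonal marks equal ratios. Lars2 and Hspa1b lie near the diagonal (7.11 beside 6.17, 0.15 beside 0.17), and Spp1, Des and Tnnt2 lie where the directions differ; without 1 DKO cell Spp1 would stand at 1.68.

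The authors' cell cycle phase calls, made from scores that depth also touches, put 41.2% of the cluster's Apoe_KO cells in G1, 33.3% in S and 25.5% in G2M, against 39.9%, 33.5% and 26.6% of the other cells. In DKO they were 50.7%, 36.6% and 12.7%, against 42.9%, 34.0% and 23.1%.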

How the data were processed

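Single-cell RNA was measured in 1 library per genotype. The deposited table holds counts, UMIs per cell and gene, made with Cell Ranger and Seurat on mm10, per the submitters' processing notes. Tool versions and gene models are not given in the sources used here. From the authors comes also a mitochondrial share of each cell, deposited as a fraction. Cluster numbers and classes are other values, names that the authors assigned and deposited. Of 10345 entries, 2428 were second copies of Apoe_KO barcodes with identical counts and were dropped; no other cell was filtered. The table has 14714 genes, 14574 of which matched a GENCODE vM21 symbol.

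The members and gene lists were chosen with earlier results of these data known. UMIs were summed per population and compared as CPM, with Python 3.11.15, numpy 2.4.6, scipy 1.17.1 and pandas 2.3.3. The ratio and call were tested on simulated sums with counting error only. That simulation had no spread between cells, so it does not cover genes whose UMIs lie in few cells. A count of 0 was set to a floor of 3 UMIs over the population for a ratio. The named genes were, among those called in both libraries with at least 50 UMIs, the 15 with the largest smaller ratio and the 10 lowest; between libraries the 10 highest and 10 lowest; against each of the 3 most similar clusters the 5 highest and 5 lowest; and up to 4 members of each list. A few genes that this rule names, 2 of the 15 among them, are not reported here, and counts over the leading genes cover the other 13. The ranking left out mitochondrially encoded, ribosomal protein, predicted and sex-linked genes, and haemoglobin and immunoglobulin genes also between libraries. List medians cover members with at least 20 UMIs in both populations together. Alternatives were other minimums of UMIs, thinning to 500 UMIs, a filter on cells, other reference populations, another total, and, added after seeing the data, the reference of SMC cells of like depth, each filter on cells alone and Spp1 without 1 cell.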

Additional observations from a re-analysis of the deposited data

How the results depend on the processing

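No paired analysis was possible because each genotype had 1 library, and no replicate could be left out for the same reason. The DKO share of cluster 17 moved from 1.29% to 3.27% once cells below 1000 UMIs or at 10% or more mitochondrial UMIs were dropped, and to 3.17% with the depth filter alone, added after seeing the data. With cells thinned to 500 UMIs, which leaves fewer counts, Apoe_KO had 122 genes higher and 45 lower in cluster 17 than in other cells, DKO 169 and 28, and the comparison of genotypes 33 and 51. The number of lists past 1.5-fold in DKO rose from 3 to 6. With the mean of the other clusters as reference, which has no interval and so calls by size alone, Apoe_KO had 1981 and 2793 and DKO 2622 and 1820. The Apoe_KO count of lower genes was 369 against the SMC class and 333 against SMC cells of like depth, both without the other cell types. Between genotypes, a minimum of 100 UMIs left 90 higher and 159 lower, and dividing by the ratio of the other cells left 114 lower. Of 284 alternative values of the named identity genes, 218 stayed within their interval, 57 moved and 9 changed side. The latter were Kcnj15 thinned in Apoe_KO (0.398), Ly6c1 (1.50 against the SMC class and 2.49 at like depth), Ptprb (2.84), Dcn (1.05), Ly6e (1.42) and Emp1 (1.23) at like depth in Apoe_KO, and Dcn in DKO (1.51 and 2.81). Of 79 between genotypes, 51 stayed, 27 moved (1 of them Spp1 without 1 cell, 1.68, added after seeing the data) and Serpina3n changed side once divided by the other cells (1.57). Of 248 list medians 241 stayed and 7 moved. The depth of DKO, 207418 UMIs over 71 cells, limits what can be seen of genes under about 20 UMIs.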
